A study of Rattus norvegicus with 12 samples.

Results

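The genes described here encode proteins that coat lipid droplets and enzymes that empty them. They were taken as a fixed list of 10 gene symbols looked up in the count files, among 16478 rows named by gene. Of the 10, 7 had a row under the listed symbol. Plin2 had a row under its older symbol Adfp, paired with it by the RefSeq gene table, and no row was matched for Plin3 or Plin4, which are not analysed here. The 8 measured genes all passed the filter on low counts. Livers were taken from obese ZSF1 rats of 16 weeks, 6 of each sex, which received no treatment and ate rat chow freely, with 1 library of total liver RNA per animal. ZSF1 is a hybrid strain of rats whose obese offspring carry a defective leptin receptor gene from each parent, so both groups share that defect and the obesity, and no lean animal is compared here. The sources used here do not give the hour of tissue collection or whether animals were fasted. Animals are called by sex and by the number in their label.

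A hepatocyte stores surplus fatty acids as triglyceride in droplets, each a core of neutral lipid under a single layer of phospholipid. Perilipins and Cide proteins sit on that surface and govern how droplets grow, fuse and meet lipases. Triglyceride is then taken apart in sequence: the lipase encoded by Pnpla2 removes the first fatty acid, hormone-sensitive lipase (Lipe) acts on diglyceride and monoglyceride lipase (Mgll) on monoglyceride. G0s2 encodes a small protein that binds and inhibits the Pnpla2 lipase. Fatty livers are rich in these droplets, and the obese ZSF1 rat is used as a model of metabolic disease.

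Libraries held 6763879 to 24837602 counts over genes in females and 11381428 to 29232871 in males. Together the 8 genes took 0.112% to 0.159% of those counts in females and 0.103% to 0.159% in males. The lowest count of any of the 8 in a library was 24, for Plin5 in female 9. Levels are given as CPM, the reads of a gene relative to the scaled total of its library. CPM is not divided by transcript length, so levels of different genes are not compared with each other. In whole tissue, fewer cells of a type and less RNA per cell cannot be told apart. The tissue was checked on marker genes. Hepatocyte markers summed to 236200 to 313500 CPM in females and 197000 to 258600 in males over 9 of 10 listed genes. Within that sum, Alb averaged 205570 CPM in females and 161770 in males. Of the 9, 2 were called higher in females (Alb and Hnf4a) and 2 in males (Ttr and Serpina1). That is 44.4% called, beside 43.2% of all tested genes. Several of the droplet genes are best known from fat tissue, yet the defining adipocyte transcripts were at or near 0: Lep had no count in any library, Adipoq 4 counts, Retn 2, Plin1 1 and Adrb3 1 over all 12. Over all 10 adipocyte markers the sum was 17.0 to 26.1 CPM in females and 15.5 to 30.2 in males, carried mainly by Cidea and Cfd. Of the 3 tested, Cfd was called 1.94-fold higher in females and Cidea 1.49-fold higher in males. Fabp4 held 223 counts and Slc2a4 113 over all 12 libraries. Of the 8 muscle markers, Mb and Myh4 were at 0 in every library and the sum did not exceed 1.8 CPM. Markers of some other liver cells were also called, and these counts too are to be read beside the 43.2% of all tested genes. Sinusoidal endothelial markers summed to 70.4 to 87.5 CPM in females and 24.9 to 71.0 in males over the 3 of 7 with a row (Lyve1, Flt4 and Fcgr2b), all 3 called higher in females, and 2 of them without female 8 or without male 2. Of 8 Kupffer cell and macrophage markers, 2 (25%) were called higher in females (Clec4f and Cd163), and 7 without male 4. Bile duct markers summed to 5.41 to 10.5 CPM in females and 5.74 to 13.6 in males, and 0 of 3 were called by edgeR (0 at an unadjusted p under 0.05), DESeq2 or limma-voom. Of 9 pancreas markers, Prss1, Prss2 and Ins1 had no count, and the 2 tested genes were called in opposite directions. Cpa1 averaged 18.2 CPM in females and 0.0314 in males, and Cela1 2.91 and 11.9. Of 2 tested neutrophil and lymphocyte markers, S100a9 was called higher in males, but not by DESeq2 or limma-voom. Of 8 acute phase markers, 5 were called higher in males and 1 in females, and 2 and 1 without female 7. The part of these markers and cell types in the sex differences below was not tested.

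Of the 8 genes, 4 were higher in males (Plin5, Cideb, Cidec and Pnpla2), by 1.25-fold to 1.58-fold, and the other 4 (Plin2, G0s2, Lipe and Mgll) did not pass the test. A gene is called when its adjusted p, from edgeR's quasi-likelihood test with Benjamini-Hochberg adjustment over 9943 tested genes, is under 0.05. The sexes differed widely across the liver: 43.2% of tested genes were called, 22.7% higher in males and 20.5% higher in females. The droplet genes called in either direction, 4 of 8, were thus a share close to the overall share. No droplet gene was called higher in females by edgeR, DESeq2 or limma-voom in all 12 animals, and 0 had an unadjusted p under 0.05 in that direction with edgeR. Their median log2 fold change, females over males, was -0.183, beside -0.0126 over all tested genes. Ranges of the sexes did not overlap for 3 of the 8 (Cideb, Cidec and Pnpla2), where 22.8% of all tested genes showed no overlap.

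**Figure D1:**
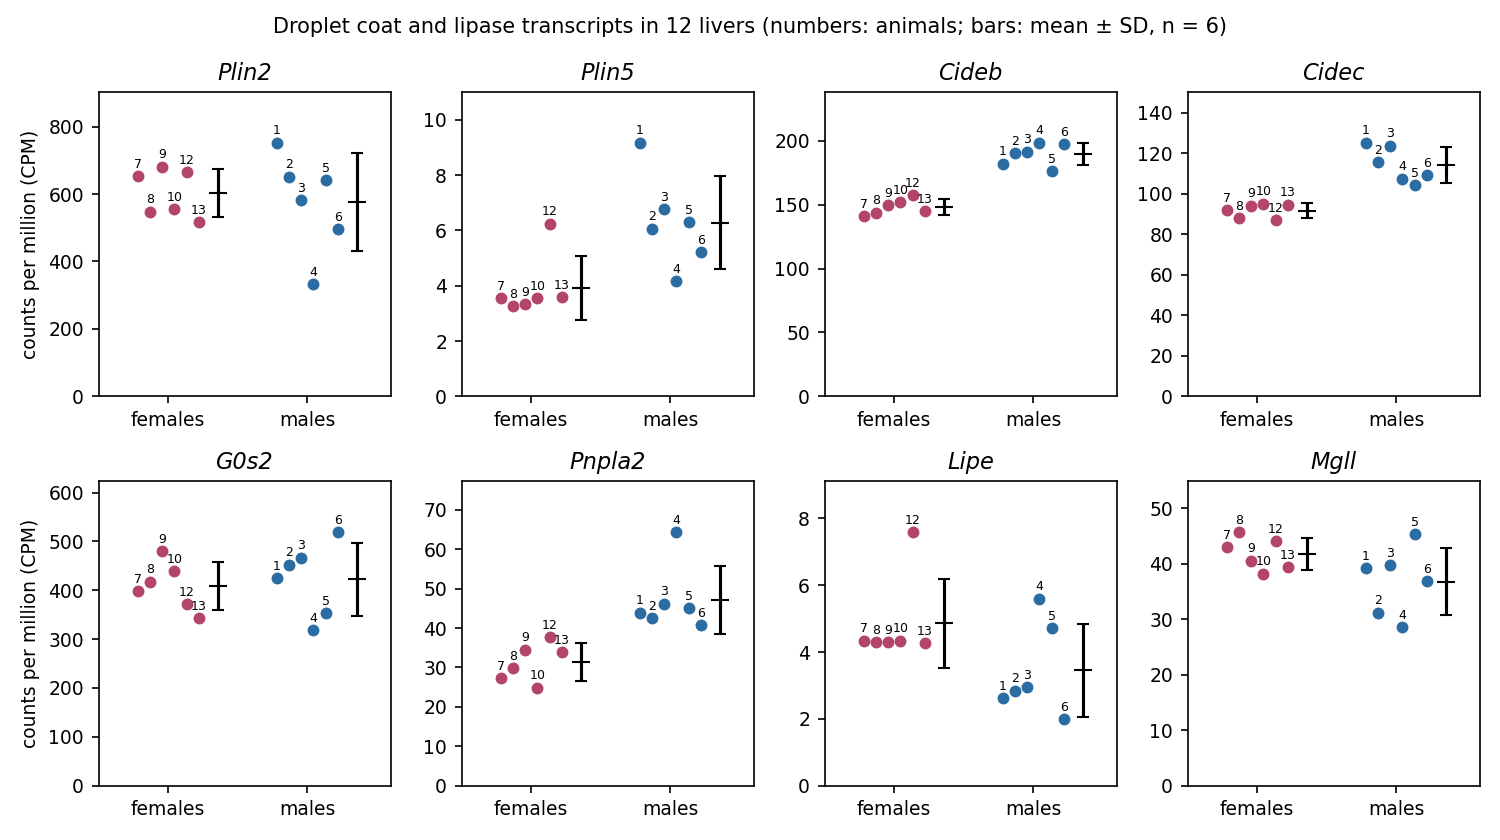
CPM of the 8 measured genes in each liver, females in red and males in blue, with the animal number above each point and the mean ± SD (n = 6) as a black bar. Cideb, Cidec and Pnpla2 separate the sexes without overlap, while female 12 lies among the males for Plin5 and above every other animal for Lipe.

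Among the perilipins, only Plin5 passed the test. Plin2 encodes the perilipin that coats droplets in most cell types and is the main one of fatty hepatocytes. It stood at 516 to 681 CPM in females (median 604) and 333 to 752 in males (median 611). The male range enclosed the female range, since male 4 was the lowest of the 12 and male 1 the highest. The log2 fold change was 0.07 (SE 0.156, adjusted p = 0.759). As a fold of females over males, its 95% interval of 0.831 to 1.32 includes equal levels. Without male 4 the other 5 males averaged 624 ± 94.4 CPM (SD), the females 603 ± 71.2 (SD, n = 6), and the log2 fold change changed sign to -0.04.

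Plin5, the perilipin of oxidative tissues that links droplets to mitochondria, was 1.58-fold higher in males. It stood at 3.27 to 6.24 CPM in females (median 3.55) and 4.17 to 9.17 in males (median 6.18), from 24 to 149 counts per library. Female 12 alone, at 6.24 CPM, lay inside the male range, and the other 5 females were packed between 3.27 and 3.59. The log2 fold change was -0.66 (SE 0.197, adjusted p = 0.0138), and -0.84 without female 12. No animal left out in turn ended the call (adjusted p from 0.00153 to 0.0346).

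Cideb and Cidec, the 2 Cide genes of the fixed list, were higher in males, by close margins and with little spread. Cideb, which acts on small droplets and in loading lipid onto very-low-density lipoproteins, stood at 141 to 157 CPM in females (median 147) and 176 to 198 in males (median 191). Every male exceeded every female, and the spread within a sex was 4.07% and 4.59% of the mean. The difference was 1.28-fold (log2 fold change -0.35, SE 0.0521, adjusted p = 9.1e-05). Cideb overlaps Nop9, a ribosome biogenesis gene, in the RefSeq gene table. If the counting did not use strand, reads of the shared stretch may have gone to neither gene, since the counts hold a row for ambiguous reads. Nop9, counted under the older symbol RGD1308396, averaged 12.1 ± 1.61 CPM in the females against 12.0 ± 2.22 in the males (SD, n = 6 each; adjusted p = 0.935).

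Cidec, which drives fusion into large droplets and is known to be induced in fatty liver, stood at 87.1 to 95.2 CPM in females (median 93.0) and 104 to 125 in males (median 113). Here too the highest female lay below the lowest male. The difference was 1.25-fold (log2 fold change -0.32, SE 0.058, adjusted p = 0.000556). Cidec was also set against Cideb in the same library, which removes the scaling of libraries. That ratio did not pass the test: 62.1 ± 3.68 Cidec reads per 100 Cideb reads in females and 60.5 ± 5.59 in males (SD, n = 6 each; 2-sided exact permutation p = 0.528, adjusted over 3 such ratios 0.528). The log2 difference of that ratio was 0.04.

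In the lipolysis group, the gene of the first lipase differed and that of its inhibitor did not pass the test. Pnpla2, which encodes adipose triglyceride lipase, stood at 24.9 to 37.7 CPM in females (median 31.9) and 40.7 to 64.4 in males (median 44.5). All 6 males exceeded all 6 females, with male 4 far above the other males, which spanned 40.7 to 46.2. The difference was 1.51-fold (log2 fold change -0.59, SE 0.122, adjusted p = 0.00142), and the log2 fold change without male 4 was -0.47 (adjusted p = 0.000686).

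G0s2 stood at 343 to 481 CPM in females (median 408) and 318 to 519 in males (median 438). The groups overlapped over nearly their whole ranges, with male 4 lowest and male 6 highest. The log2 fold change was -0.05 (SE 0.116, adjusted p = 0.755). As a fold of females over males, its 95% interval was 0.814 to 1.15. Within a library, Pnpla2 gave 5.67 to 10.2 reads per 100 G0s2 reads in females (median 7.17) and 7.84 to 20.2 in males (median 10.1). The ratio was 1.46-fold higher in males (2-sided exact permutation p = 0.026 over 924 assignments, adjusted over 3 ratios 0.039), with both ranges overlapping. Leaving out 1 animal ended that call for 9 of the 12 (females 7, 8, 9 and 10 and males 1 to 5, with adjusted p between 0.0519 and 0.104), and the log2 difference of -0.54 shrank to -0.37 without male 4.

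Plin5 set against Plin2 within a library gave a firmer difference. Females held 0.488 to 0.938 Plin5 reads per 100 Plin2 reads (median 0.618) and males 0.931 to 1.25 (median 1.11), with female 12 and male 2 meeting at the edge. The ratio was 1.71-fold higher in males (2-sided exact permutation p = 0.00433, adjusted 0.013, where 0.00216 is the smallest p the design allows). Leaving out each animal in turn, or male 4 and female 12 together, did not end this call. Male 4, the lowest male in both perilipins by CPM, held the highest ratio of all animals. The planned ratio of Plin2 to Plin3 was not computed because Plin3 had no matched row.

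**Figure D2:**
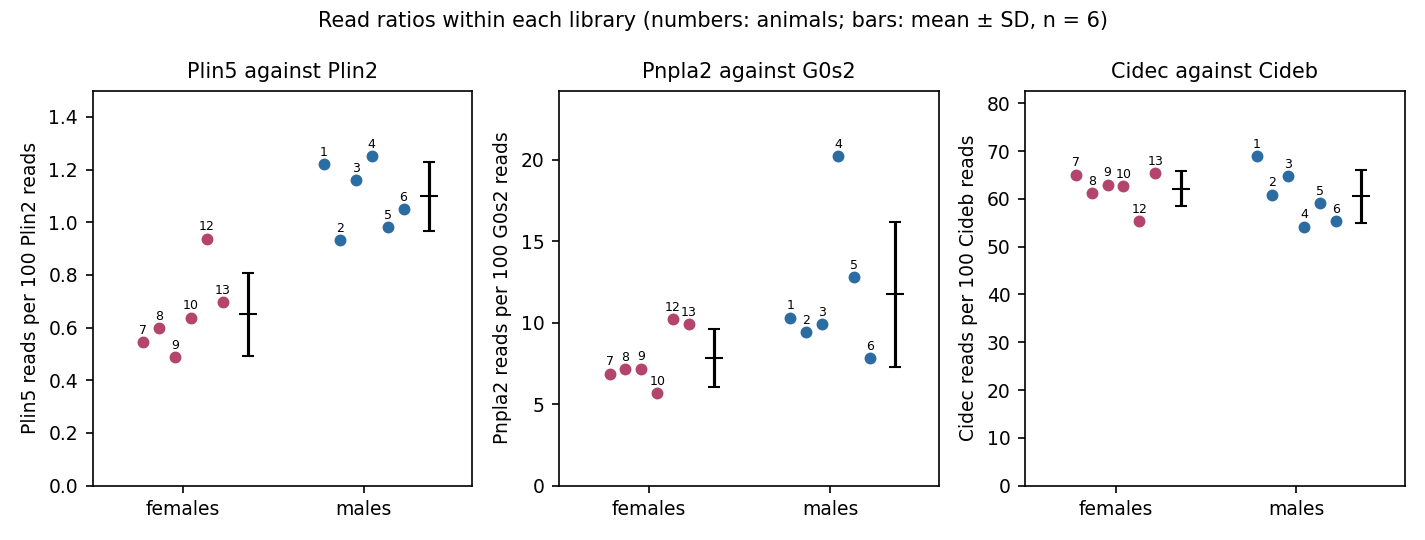
Reads of 1 gene per 100 reads of another in the same library, by sex, with animal numbers and the mean ± SD (n = 6) as black bars. Plin5 against Plin2 is higher in males with a contact between female 12 (0.938) and male 2 (0.931), Pnpla2 against G0s2 reaches 20.2 in male 4, and Cidec against Cideb shows no separation.

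The 2 genes of the later lipolysis steps pointed toward females without passing the test. Lipe, hormone-sensitive lipase, stood at 4.27 to 7.59 CPM in females (median 4.32) and 1.99 to 5.59 in males (median 2.90). The 5 females other than female 12 lay within 4.27 to 4.34 CPM, above males 1, 2, 3 and 6 and below males 4 and 5. The difference was 1.42-fold (log2 fold change 0.50, SE 0.244, adjusted p = 0.112), with a 95% interval of 0.985 to 2.03 for the fold. It rested on few animals: it was called without male 4 (log2 fold change 0.72, adjusted p = 0.0129), and with female 12 left out it was 0.33 (adjusted p = 0.269). Mgll, monoglyceride lipase, stood at 38.2 to 45.8 CPM in females (median 41.8) and 28.6 to 45.3 in males (median 38.0). Males 2, 4 and 6 lay below every female and the other 3 males within the female range. The log2 fold change was 0.19 (SE 0.0974, adjusted p = 0.137), and 0.26 without male 5, the only animal whose removal gave a call (adjusted p = 0.0302).

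**Figure D3:**
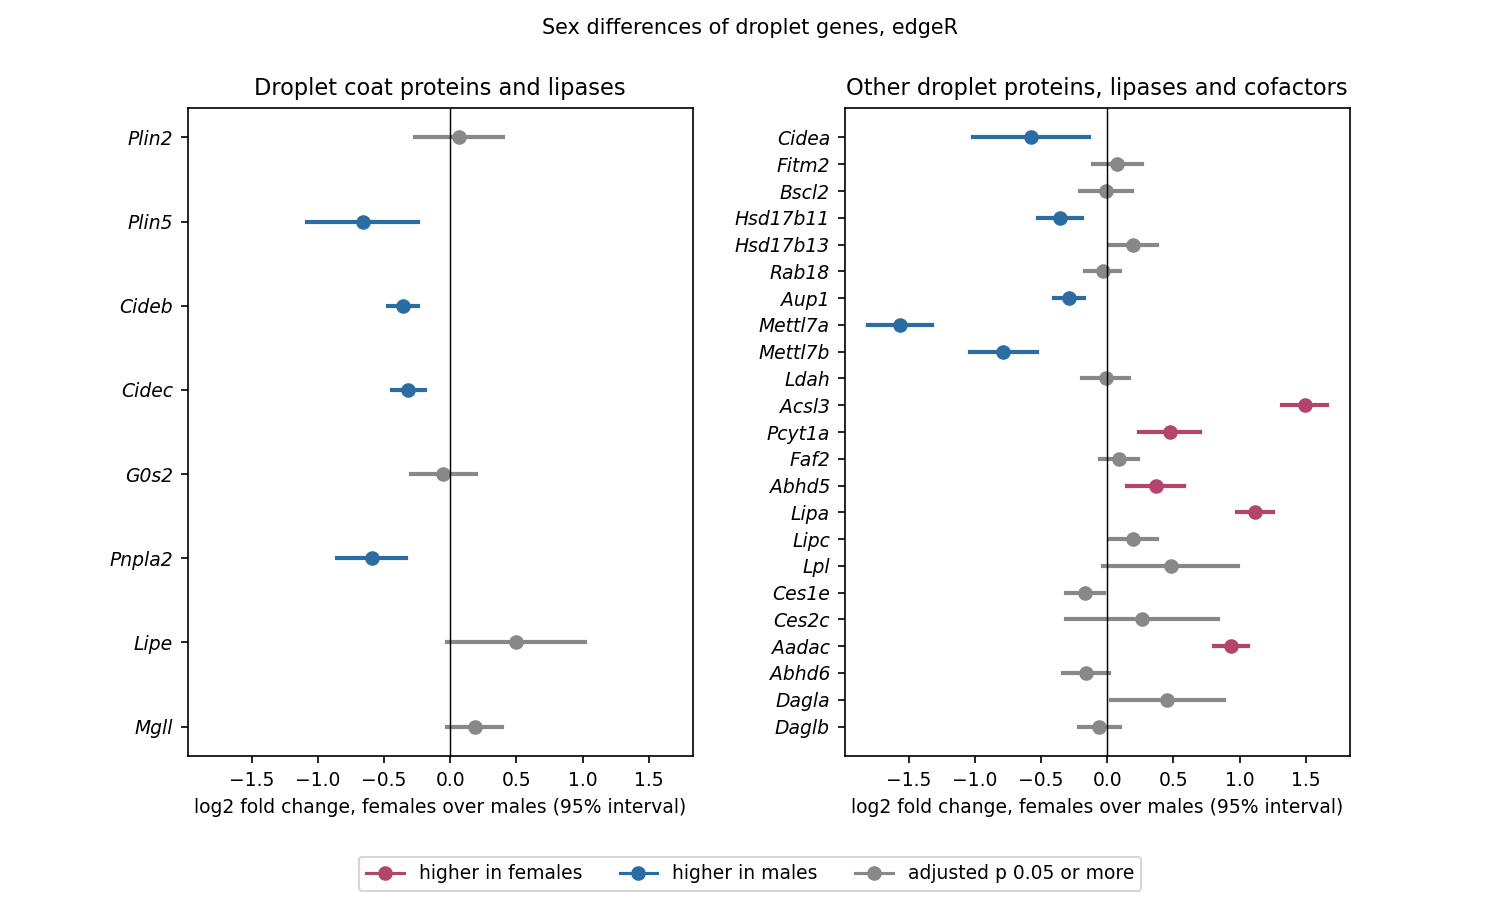
Log2 fold change of females over males (horizontal axis, points) with its 95% interval (lines) for the 8 measured genes at left and for the tested genes of the lists of other droplet proteins and of lipases and cofactors at right; red and blue mark adjusted p under 0.05 and grey the rest. The 4 called genes at left all lie below 0, while the lists at right hold genes on both sides, from Mettl7a at -1.56 to Acsl3 at 1.49.

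Individual animals stood apart within their sex. Female 12 held the highest Plin5, Pnpla2, Lipe and Cideb of the females and the lowest Cidec. In the same liver Cpt1a, the gatekeeper of mitochondrial fatty acid entry, stood at 281 CPM, where the other females lay between 87.6 and 143 and the males between 198 and 318. Male 4 held the lowest Plin2, Plin5, G0s2 and Mgll of the males and the highest Pnpla2, Lipe and Cideb. The summed acute phase markers were highest in this liver, at 69290 CPM where the other males lay between 28270 and 31930 and the females between 19560 and 25150, with 30730 CPM of the haptoglobin gene Hp, where the other males lay between 10860 and 12260, and 269 CPM of Lcn2, where no other animal exceeded 6.62. Its Kupffer cell and macrophage markers summed to 410 CPM, where the other males spanned 95.5 to 170 and the females 157 to 238. Its neutrophil and lymphocyte markers summed to 54.6 CPM, where the other males spanned 7.84 to 14.01 and the females 9.76 to 13.8. The part of these measures in the droplet gene values was not tested. With male 4 and female 12 both left out, the same 4 genes stayed called higher in males, and Lipe was called higher in females (log2 fold change 0.56, adjusted p = 0.0195).

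**Figure D4:**
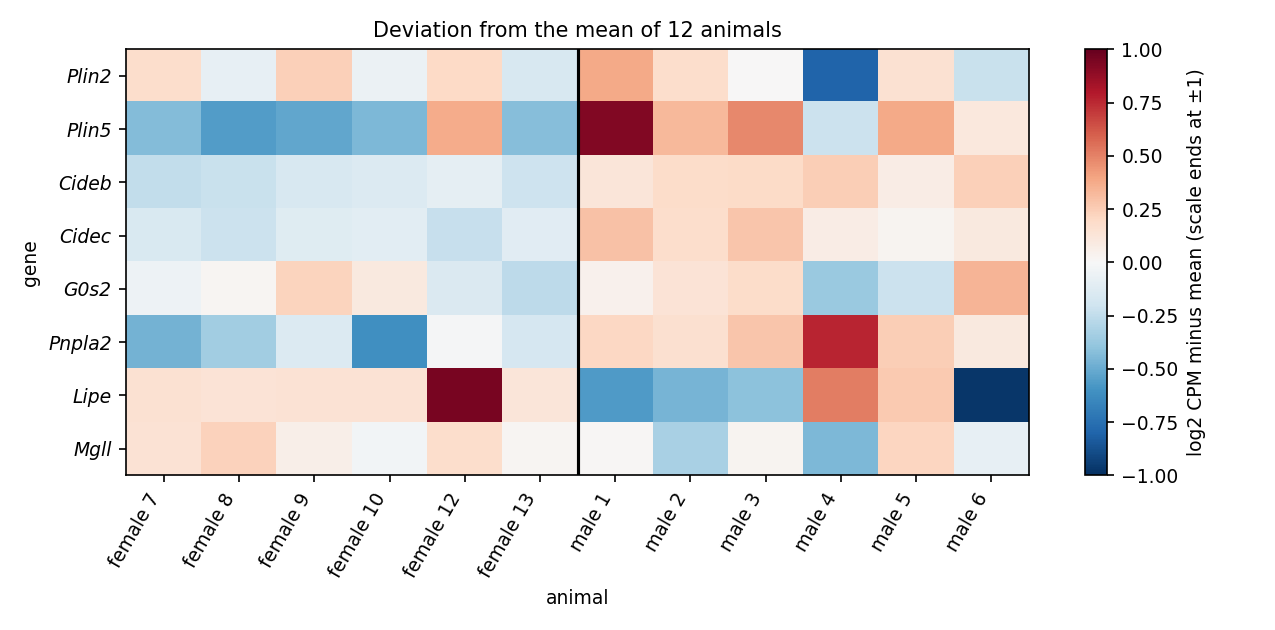
Log2 CPM of each gene (rows) in each animal (columns) minus the gene's mean over the 12 animals, with a line between females and males. The lowest values are Lipe in male 6 (-0.97) and Plin2 in male 4 (-0.80), and the highest are Lipe in female 12 (0.95) and Plin5 in male 1 (0.92).

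How the 8 genes varied with each other was examined within each sex, since the sexes form separate groups. Of 56 relations (28 pairs in each sex, 6 animals each), 0 had an adjusted p under 0.05 by exact permutation over 720 pairings, and 5 had an unadjusted p under 0.05, 1 in females and 4 in males. The smallest adjusted p was 0.234. Each r was also taken without the 2 animals farthest from the median of the gene named first. That leaves 4 animals, so such an r is given as a description. In males Plin2 and Plin5 gave r = 0.91 (exact permutation p = 0.0167; rho = 0.77, exact p = 0.103; adjusted p = 0.234 and 0.762), and r was 0.67 without males 1 and 4. In females Cidec and Mgll gave r = -0.92 (exact permutation p = 0.0139; rho = -0.94, exact p = 0.0167; adjusted p = 0.234 and 0.762), and r was -0.97 without females 8 and 12. Plin5 and Lipe in females gave r = 0.99 (exact permutation p = 0.0764; rho = 0.37, exact p = 0.497; adjusted p = 0.481 and 0.987), and r was -0.24 without females 8 and 12. Of those 2 animals, only female 12 lay far above the other females in both genes (6.24 CPM of Plin5 and 7.59 of Lipe). Female 8 held 3.27 and 4.30 CPM. Also in males, G0s2 and Lipe gave r = -0.964 (exact permutation p = 0.00833, adjusted 0.234), and -0.727 without males 4 and 5. Pnpla2 and Lipe gave r = 0.802 (exact permutation p = 0.0153, adjusted 0.234), and 0.355 without males 4 and 6. For G0s2 and Pnpla2 r was -0.801 (exact permutation p = 0.0222, adjusted 0.249), and -0.54 without males 4 and 5. All pairs named here were chosen after their values were seen.

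Across all tested genes, the transcript most like Plin5 was Hadhb, the beta subunit of the mitochondrial trifunctional protein of fatty acid oxidation. Likeness was Pearson's r of log2 CPM over 12 animals with the mean of each sex removed, given as a description, since the values share libraries and depth. It was 0.959 for Hadhb, and 0.899 without male 4 and female 12. Hadhb stood at 481 CPM in female 12 and at 297 to 364 in the other females, and at 343 in male 4 and 388 to 544 in the other males. The transcript most like Plin2 was Etfa, of the electron transfer flavoprotein (0.957, and 0.904 without those 2 animals). Next in likeness were Incenp for Plin5 (0.94) and Eif3j for Plin2 (0.951). The most alike for Lipe was Tspan7 (0.937), for Mgll Nf1 (0.957), for Pnpla2 Pxk (0.920, falling to 0.789 without the 2 animals), for Cideb Tpra1 (0.918), for Cidec Rars2 (0.916) and for G0s2 LOC100137086 (0.942). Next for these were C1qtnf1 for Lipe (0.925), Kpna3 for Mgll (0.938) and Krt18 for Pnpla2 (0.913). They were Cnpy3 for Cideb (0.903), LOC100233177 for Cidec (0.896) and Rraga for G0s2 (0.917).

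The promoters of the 4 genes that were higher in males are shown to set their sequence beside that shared direction. Each is the 250 bases before the annotated start in RefSeq's GRCr8 assembly, 5′ to 3′ on the gene's strand: Plin5 at chr9:1033285-1033534, minus strand; Cideb at chr15:33226408-33226657, minus strand; Cidec at chr4:148137116-148137365, minus strand; and Pnpla2 at chr1:205982029-205982278, plus strand. Capitals mark a match to one of the motifs searched on both strands.
Plin5: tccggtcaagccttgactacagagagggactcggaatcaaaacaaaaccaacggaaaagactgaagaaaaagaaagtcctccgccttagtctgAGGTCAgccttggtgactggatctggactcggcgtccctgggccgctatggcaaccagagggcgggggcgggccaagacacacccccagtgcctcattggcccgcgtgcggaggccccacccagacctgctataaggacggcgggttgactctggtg
Cideb: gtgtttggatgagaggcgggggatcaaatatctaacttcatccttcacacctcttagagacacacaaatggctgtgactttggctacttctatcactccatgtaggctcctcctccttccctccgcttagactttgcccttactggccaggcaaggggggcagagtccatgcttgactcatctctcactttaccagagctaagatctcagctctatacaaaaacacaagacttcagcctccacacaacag
Cidec: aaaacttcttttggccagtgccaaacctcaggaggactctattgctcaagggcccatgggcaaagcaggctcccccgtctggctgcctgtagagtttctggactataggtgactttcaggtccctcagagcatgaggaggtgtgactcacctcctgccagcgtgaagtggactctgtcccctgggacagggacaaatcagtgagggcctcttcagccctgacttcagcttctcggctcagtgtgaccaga
Pnpla2: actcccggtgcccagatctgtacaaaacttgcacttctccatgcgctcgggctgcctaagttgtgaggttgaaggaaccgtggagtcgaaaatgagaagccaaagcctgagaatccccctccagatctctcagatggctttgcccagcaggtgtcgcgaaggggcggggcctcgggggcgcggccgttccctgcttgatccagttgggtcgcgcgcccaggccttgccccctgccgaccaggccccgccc

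The motifs were the nuclear receptor half-site AGGTCA, its direct repeat with 1 base between (DR1, the form bound by PPAR receptors), the E-box CACGTG, the TATA box TATAAA and the STAT site TTCNNNGAA. Each DR1 match also holds AGGTCA matches. Of the 4 promoters, only that of Plin5 held a match, an AGGTCA starting 157 bases before the start, and 14.1% of all 33469 promoters of this length in the table hold that motif. Among the genes that did not pass the test, a CACGTG lay 67 bases before the first listed Plin2 start and 74 before that of Mgll (5.59% of all promoters hold one), and a TTCNNNGAA match 54 before that of G0s2 (7.67%). No DR1 was found in any of the 14 promoters listed for 9 of the 10 genes, and 0.0508% of all promoters hold one, while 12.9% hold TATAAA. A match is a run of letters and was not tested for binding.

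The other proteins of the droplet surface differed in both directions. Of 13 tested genes in that list, 5 were called on the male side and 2 on the female side. That is 53.8% called, beside 43.2% of all tested genes. The list's median log2 fold change was -0.0119. The methyltransferase-like droplet proteins Mettl7a and Mettl7b were 2.96-fold and 1.72-fold higher in males (66.0 ± 4.79 against 22.4 ± 4.52 CPM, and 634 ± 43.8 against 368 ± 70.3; SD, n = 6 each). Acsl3, an acyl-CoA synthetase of nascent droplets, was 2.81-fold higher in females (39.0 ± 3.04 against 13.9 ± 1.52 CPM). Hsd17b11 and Aup1 were also higher in males and Pcyt1a, of phosphatidylcholine synthesis, in females. Hsd17b13, a liver droplet enzyme, averaged 418 ± 14.2 CPM in the females against 365 ± 50.3 in the males (adjusted p = 0.0818). Cidea, the third Cide gene and usually known from brown fat, was singled out after its values were seen. It held 9.81 to 18.0 CPM in females and 11.4 to 26.7 in males, overlapping ranges with a 1.49-fold higher level in males (adjusted p = 0.0341). Removing any of 7 single animals ended this call (females 7, 10, 12, 13, males 3, 4, 5; adjusted p between 0.0507 and 0.0804), as did library totals as scaling (0.0577), no filter on low counts (0.0508) and leaving out male 4 with female 12 (0.128).

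Of 10 tested genes for other lipases and cofactors of lipases, 3 were higher in females (Lipa, Aadac and Abhd5) and 7 were not called. That is 30.0% called, beside 43.2% of all tested genes, and the median log2 fold change was 0.315. By edgeR 0 were higher in males, and 1 was with an unadjusted p under 0.05 and also by the adjusted p without female 8 or without male 5. Lipa, the lysosomal acid lipase, was 2.17-fold higher in females (476 ± 25.4 against 220 ± 14.3 CPM; SD, n = 6 each; adjusted p = 6.68e-09). Aadac, a lipase of the endoplasmic reticulum, was 1.91-fold higher (130 ± 4.94 against 68.2 ± 5.52). Abhd5, which encodes the coactivator of the Pnpla2 lipase, was 1.29-fold higher in females (30.4 ± 3.93 against 23.7 ± 2.95 CPM, adjusted p = 0.00829), a direction opposite to that of Pnpla2. Lipc, hepatic lipase, averaged 425 ± 38.3 CPM in the females against 371 ± 38.2 in the males (adjusted p = 0.0644), and was called with upper quartile factors, library totals, DESeq2 or a filter at a mean of 1 CPM, without female 9, female 12, male 1 or male 5, and with male 4 and female 12 both left out (adjusted p between 0.0337 and 0.0491).

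Genes that fill the droplet were mostly toward females where called. Of 15 tested genes of triglyceride assembly, 6 were called toward females and 2 toward males. That is 53.3% called, beside 43.2% of all tested genes, and the median log2 fold change was 0.172. The 2 toward males were Gpat4 (1.86-fold) and Lpin2 (1.97-fold). Dgat2, which makes triglyceride from diglyceride, was 2.51-fold higher in females (1410 ± 206 against 561 ± 57.0 CPM; SD, n = 6 each), Mogat2, of the monoglyceride route, 3.63-fold higher at low levels (1.73 ± 0.588 against 0.509 ± 0.245 CPM), and Gpam 6.33-fold higher. Acsl1, another acyl-CoA synthetase, was not called, at 2970 ± 124 and 2863 ± 226 CPM (adjusted p = 0.589).

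Upstream signals of lipolysis gave 6 of 17 genes called toward females and 3 toward males. That is 52.9% called, beside 43.2% of all tested genes, and the median log2 fold change was 0.287. The insulin receptor gene Insr was 1.48-fold and the kinase gene Akt1 1.42-fold higher in females. Irs2, an insulin receptor substrate, stood 1.84-fold above the female level in males (adjusted p = 0.0286), and 6 single animals each ended that call when removed (females 8, 9, 10, males 2, 3, 4; adjusted p between 0.0525 and 0.0666). Of 14 transcription regulators of droplet genes, 4 were called toward males and 3 toward females (50% called, median log2 fold change -0.15). With male 4 and female 12 both left out, these counts were 5 and 1. Pparg, the adipogenic PPAR, was 4.49-fold higher in males at low levels (2.92 ± 0.721 against 0.607 ± 0.386 CPM), Ppard 3.20-fold higher in females (31.1 ± 11.7 against 9.73 ± 2.26) and Cebpb 1.54-fold higher in males. Ppara, the PPAR of hepatocytes, averaged 18.5 CPM in the females against 23.4 in the males (adjusted p = 0.315).

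Genes known to respond to PPAR receptors are a group to which Plin2, Plin5 and Cidec are also usually counted. Of 18 tested, 6 were called toward males and 4 toward females. That is 55.6% called, beside 43.2% of all tested genes, and the median log2 fold change was -0.107. Cyp4a3 was 3.46-fold and Vnn1 3.02-fold higher in males, whereas Cd36, for fatty acid uptake, was 3.19-fold higher in females, and the fatty acid binding protein gene Fabp1 was not called (adjusted p = 0.632). Genes of lysosomes and of autophagy, the other route by which droplets are consumed, had 3 of 14 called toward males and 1 toward females (28.6% called, median log2 fold change -0.0583). The autophagy receptor gene Sqstm1 was 1.53-fold and Map1lc3b 1.29-fold higher in males, and the protease gene Ctsd 1.44-fold higher in females. Ctsb, another lysosomal protease gene, was not called and averaged 716 ± 51.3 CPM in the females against 741 ± 107 in the males (adjusted p = 0.694). Stellate cells also store lipid in droplets, and their markers summed to 81.8 to 115 CPM in females and 65.2 to 123 in males, with 2 of 8 tested markers higher in each sex. Their part in the droplet gene values was not tested.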

How the data were processed

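Liver RNA of 12 rats was sequenced with libraries made by an Illumina TruSeq kit from 1 µg of total RNA, per the labels' protocols. The deposited values are whole-number read counts per gene symbol without normalization. Bowtie2 2.0.2, DESeq and build rn4 are named in the submitters' processing notes. For the counting program, annotation and strand setting, the entry is: not given in the sources used here. The names of the deposited counts hold the word strand, without saying how it was used. A further 5 rows named no gene (no_feature, ambiguous, too_low_aQual, not_aligned and alignment_not_unique) and held 27.1% to 31.7% of counts. They were left out. By these names, ambiguous reads and reads with several alignments had rows apart from those of genes. Of 16478 symbols, 15931 matched a current or older symbol in RefSeq's GRCr8 gene table, used for names and for which genes overlap.

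The sexes were compared by edgeR 4.0.16 under R 4.3.3 (genes kept by filterByExpr at a minimum count of 10 and minimum total of 15; TMM; quasi-likelihood F test with robust dispersion; sex as the only term; Benjamini-Hochberg over 9943 genes). Log2 fold changes are females over males; each SE was obtained as that change's size divided by the square root of F. Intervals use the t distribution of that fit. Ratios of counts (0.5 added) and relations within a sex were tested by 2-sided exact permutation (Python 3.11.15, NumPy 2.4.6, SciPy 1.17.1). The 4 planned ratios became 3. Alternatives used DESeq2 1.42.0, limma-voom (limma 3.58.1), other scalings and filters, and fits without animals. The 3 fits across genes (edgeR, DESeq2 and limma-voom) were checked on simulated counts.

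At these depths 3 counts equal 0.103 to 0.444 CPM. Libraries of 1 sex all differed by more than sampling noise (lowest chi-square/df 6.34), so none was merged. No batch is named in the labels; males are numbered 1 to 6 and females from 7 on, so sex and any batch that followed those numbers cannot be told apart. The members and gene lists were chosen with earlier results of these data known. Named were all members, marker genes and the genes most like each member. Each list gave up to 3 called genes with the largest change, among those with at least 1 CPM in the higher sex. Its uncalled gene with the highest mean CPM was also named. Cidea, Hsd17b11, Aup1, Pcyt1a, Gpat4, Lpin2, Ppara and Cpt1a were added after their values were seen.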

Additional observations from a re-analysis of the deposited data

Results flagged for a closer look

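Of 22 groups of 6 animals (8 genes and 3 ratios in each sex), 3 held an animal whose gap to its nearest neighbour took more than 0.625 of the group's range, where chance gives about 1 in 20. Plin5 in female 12 stood at 6.24 CPM, with the next female at 3.59 (gap 0.891 of the range). Lipe in the same liver stood at 7.59 CPM, with the next female at 4.34 (gap 0.978). Pnpla2 in male 4 stood at 64.4 CPM, with the next male at 46.2 (gap 0.768).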

How the results depend on the processing

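Counts of droplet genes higher in males were 4 under all 20 alternatives, and Plin5, Cideb, Cidec and Pnpla2 kept direction and call in each. Their log2 fold changes ran from -0.91 to -0.53, -0.37 to -0.33, -0.33 to -0.29 and -0.65 to -0.47. Counts higher in females, 0 as reported, ran from 0 to 1 with each animal left out (Lipe without male 4, Mgll without male 5) and were 1 with male 4 and female 12 both left out. Differences near 0 changed sign: Plin2 ran from -0.0407 (without male 4) to 0.157 with each animal left out and was -0.0691 with both left out, G0s2 ran from -0.111 (without male 4) to 0.0165 (without male 6) and was 0.00386 without female 13, and Ctsb ran from -0.0847 to 0.0453 (without male 4) and was 0.0756 with both left out. The Pnpla2 to G0s2 ratio difference ran from -0.65 to -0.37 with each animal left out, and 9 of those 12 fits lost the call. An exact test of 5 against 6 animals has fewer assignments, and the part of that in the lost calls was not tested. The Plin5 to Plin2 ratio kept its call in all 14 of its alternatives. The 7 lists of related genes held 25 calls toward females and 23 toward males, and 22 to 32 and 20 to 23 under the alternatives. Over all genes these were 2037 and 2261, and 1809 to 2402 and 1987 to 2284. The median log2 fold change of all genes stayed between -0.0155 and 0.0152. No paired analysis was possible because the sexes share no animal number. Plin5 and Lipe rested on 24 to 149 and 30 to 104 counts per library, so counting error is larger there than for the other droplet genes.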
